A study of Homo sapiens with 10 samples.

Results

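Genes of iron storage, uptake, export and control were followed across 2 human cell lines and 2 compounds. The 10 genes were chosen with earlier results of these data known. Their rows were matched by symbol alone, as the gene rows named FTH1, FTL, NCOA4, TFRC, STEAP3, SLC11A2, SLC40A1, HMOX1, ACO1 and IREB2. All 10 were found among the 60651 gene rows of the count table. All 10 entered the tests. SLC40A1 lay close to the limit of the count filter in t-hESC, where each library held only 5 to 15 reads of it, and far above it in HT29. RNA was sequenced from HT29, an established line from a human colorectal carcinoma, and from t-hESC, transformed human embryonic stem cells, as 10 libraries in 5 groups of 2. HT29 cells received DMSO, the solvent control, or 10 µM of a compound named VXN. The t-hESC cells received DMSO, 1 µM of a compound named BIX, or 10 µM VXN, and the labels give 48 hours for every library. The sample titles give the compounds only by those short names, and the title of the series names their subject as drugs acting on the repressive histone mark H3K9me2. Each line is a single established line, so every result describes these cultures of it.

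Cells store iron inside ferritin, a hollow shell built of heavy chains (FTH1), which oxidise iron, and light chains (FTL), which help the iron core form. NCOA4 carries ferritin to the lysosome, where its iron is released again. Iron enters as transferrin through the transferrin receptor (TFRC), is reduced by STEAP3, crosses the endosome membrane through SLC11A2 (DMT1), and leaves the cell through ferroportin (SLC40A1). HMOX1 frees iron from heme. Iron regulatory proteins, encoded by ACO1 (IRP1) and IREB2 (IRP2), bind hairpins called iron responsive elements in the mRNAs of several of these genes when iron is scarce: they block translation of ferritin and slow the decay of TFRC mRNA. RNA levels therefore show only a part of this control, and protein was not measured here.

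Total gene counts ran from 13137026 to 24492838 per library, and 3 counts, the limit that a count of 0 allows, correspond to 0.122 to 0.228 CPM. CPM, the usual depth-scaled read count, were computed on library sizes normalized with TMM, the trimmed mean of M values, and these limits cover counting error only. All 8 pluripotency markers, led by POU5F1, were above that limit in both libraries of each t-hESC group, with sums of 4958 to 5619 CPM against 11.9 to 16.1 CPM in HT29. The 9 colorectal markers summed to 1683 to 2072 CPM in HT29. In t-hESC they summed to 114 to 127 CPM, nearly all of it EPCAM. Markers of 3 cell types known for iron handling were also read. The 6 erythroid markers summed to at most 1.04 CPM in any library. Among the 6 macrophage markers only LYZ was high, in HT29, with 2976 CPM under DMSO and 1407 CPM under VXN, while CD163 was at 0 there. Among the 4 hepatocyte markers only SERPINA1 was high, at 241 CPM in HT29 under DMSO and 215 CPM under VXN. In these bulk samples, fewer cells of a kind and less RNA per cell cannot be told apart.

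Sequence near the starts of these genes was read for short motifs. The first transcript bases of FTL carry the loop of its iron responsive element, CAGTGN, which is shown because FTL is one of the genes that changed most. Here are 30 bases at chr19:48965329-48965358 on the plus strand of GRCh38.p14, from RefSeq, with the loop in capitals. The RefSeq window ends before the hairpin is complete.
FTL iron responsive element: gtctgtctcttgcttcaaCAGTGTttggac
The letters CAGTGN stood on the given strand in the first 50 transcript bases of 6.36% of 35116 RefSeq promoter windows. RefSeq windows were matched for 8 of the 10 genes, and FTH1 and HMOX1 had no entry. Among the matched genes the letters also stood in a window of NCOA4, which is not counted below among mRNAs with a known element. They were absent from the window of SLC40A1, which is counted there. The letters alone thus do not mark an element. The 250 bases before the start are printed for 3 genes whose levels the results turn on: FTL and TFRC, which rose together in all 3 treatment comparisons, and SLC40A1, which differed most between the lines. Capitals mark any of 5 motifs on either strand: the hypoxia response core ACGTG, the TATA core TATAA, the CCAAT box, the GC box GGGCGG and the antioxidant response core TGACNNNGC. The windows lie at chr19:48965059-48965308 on the plus strand, chr3:196082091-196082340 on the minus strand and chr2:189580787-189581036 on the minus strand, in that order.
FTL upstream: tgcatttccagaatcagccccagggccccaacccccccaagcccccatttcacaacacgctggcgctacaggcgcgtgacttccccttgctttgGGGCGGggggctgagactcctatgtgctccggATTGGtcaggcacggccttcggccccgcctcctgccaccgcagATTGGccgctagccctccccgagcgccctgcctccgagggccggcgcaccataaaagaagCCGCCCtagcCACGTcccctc
TFRC upstream: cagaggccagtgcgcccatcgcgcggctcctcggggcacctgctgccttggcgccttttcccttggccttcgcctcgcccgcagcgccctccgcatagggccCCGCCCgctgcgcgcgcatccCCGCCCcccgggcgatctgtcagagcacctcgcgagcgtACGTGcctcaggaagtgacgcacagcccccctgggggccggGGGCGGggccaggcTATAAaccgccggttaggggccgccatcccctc
SLC40A1 upstream: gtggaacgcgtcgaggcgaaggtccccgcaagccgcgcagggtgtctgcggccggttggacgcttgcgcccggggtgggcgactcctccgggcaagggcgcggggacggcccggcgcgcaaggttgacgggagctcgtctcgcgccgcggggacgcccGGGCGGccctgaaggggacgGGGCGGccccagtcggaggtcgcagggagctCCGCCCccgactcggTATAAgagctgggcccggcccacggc
FTL and TFRC each held 1 ACGTG, and SLC40A1 held none. A TATAA stood 33 bases before the start of TFRC and 26 before that of SLC40A1, while FTL held CCAAT in 2 places. GC boxes were present in all 3. Over all windows of 250 bases, ACGTG was found in 18.5%, TATAA in 18.9%, CCAAT in 32.0% and GGGCGG in 42.6%. The antioxidant core TGACNNNGC was found in 10.9% of all windows and in none of the windows of these 8 genes. A match describes letters only, and a missing match says only that those letters were not in this window.

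The 2 ferritin chains rose 5.53-fold (FTH1) and 5.66-fold (FTL) in HT29 cells under VXN, and 1.23-fold and 1.24-fold in t-hESC cells under the same dose. FTH1, whose gene lies at chr11:61964285-61967634, measured 2707 and 2542 CPM in the HT29 DMSO libraries and 14388 and 14640 CPM in the HT29 VXN libraries. In t-hESC it measured 1279 and 1286 CPM under DMSO, 1431 and 1471 CPM under BIX, and 1596 and 1557 CPM under VXN. No library of one group overlapped another, and the groups stood in the order HT29 VXN, HT29 DMSO, t-hESC VXN, t-hESC BIX, t-hESC DMSO, with each neighbour differing from the next in the edgeR test. The HT29 response was a log2 fold change of 2.47 ± 0.028 (SE; edgeR quasi-likelihood test, adjusted p = 1.37e-62). In t-hESC the log2 fold change was 0.30 ± 0.028 under VXN (edgeR adjusted p = 1.18e-13) and 0.18 ± 0.028 under BIX (edgeR adjusted p = 8.70e-07).

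FTL, at chr19:48965309-48966879, moved beside it. Its libraries measured 1259 and 1244 CPM in HT29 under DMSO and 7168 and 7008 CPM under VXN. The t-hESC libraries measured 911 and 913 CPM under DMSO, 1057 and 1144 CPM under BIX, and 1132 and 1128 CPM under VXN. Treated libraries of both lines lay above all DMSO libraries of their line. The HT29 response was log2 2.50 ± 0.029 (edgeR adjusted p = 2.67e-62). In t-hESC it was log2 0.31 ± 0.029 under VXN (edgeR adjusted p = 1.20e-13) and 0.27 ± 0.029 under BIX (edgeR adjusted p = 3.06e-11). The t-hESC VXN and BIX groups overlapped, and their difference did not pass the edgeR test (adjusted p = 0.385). All other neighbours in the order of groups differed.

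**Figure D1:**
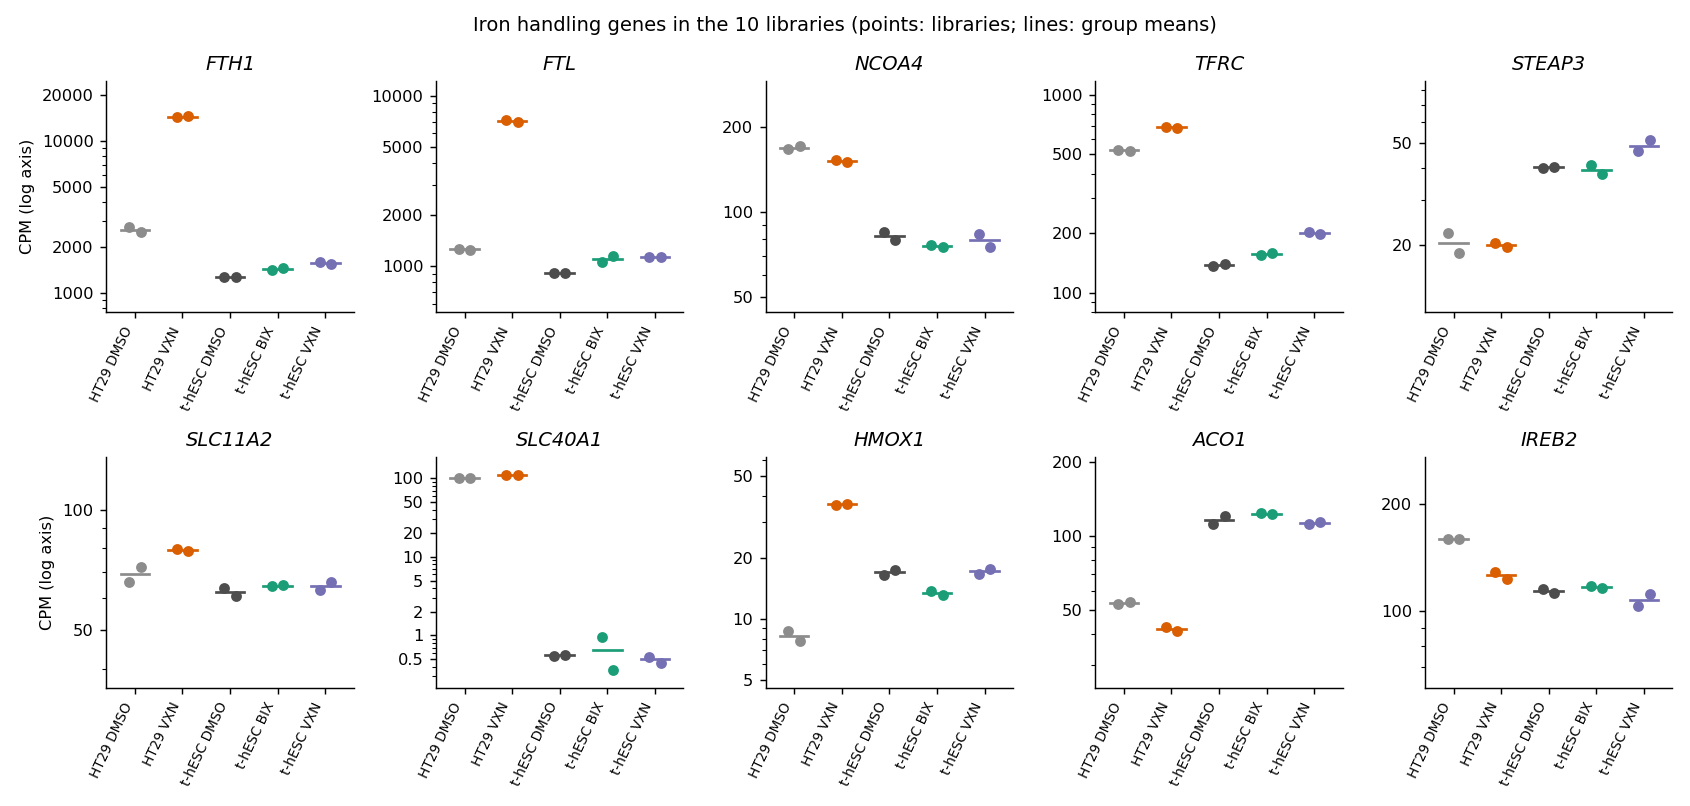
Level of each of the 10 genes in CPM (log axis, a separate scale per gene) for each library; points are libraries and short lines are means of the 2 libraries of a group. FTH1, FTL and HMOX1 stand highest in HT29 under VXN, SLC40A1 is near the lower limit in all t-hESC groups, and ACO1 and STEAP3 are higher in t-hESC than in HT29.

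Together the 2 ferritin chains made up 0.386% ± 0.0104 (SD, n = 2) of all gene counts in HT29 under DMSO and 2.02% ± 0.0055 (SD, n = 2) under VXN. FTH1 was the gene with rank 13 by counts in HT29 under DMSO and rank 2 under VXN, and FTL went from rank 53 to rank 5. In t-hESC the share was 0.221% under DMSO, 0.265% under BIX and 0.278% under VXN. The ferritin share of gene counts was thus largest in HT29 under VXN among the 5 groups. These shares leave out the row of BEST1, a gene that overlaps FTH1. That row held 0.253% and 1.23% in HT29 under DMSO and VXN. Whether those were further reads or FTH1 reads counted again is not known. The size of the share thus rests on how shared reads were assigned. By fold change the pair was not at the top of that comparison: FTL stood at rank 907 and FTH1 at rank 921 of 22495 tested genes, counted from the highest log2 fold change.

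NCOA4, the ferritin receptor of the lysosomal route (chr10:46005088-46030623), did not rise with its cargo. It measured 166 and 171 CPM in HT29 under DMSO and 152 and 149.8 CPM under VXN, so the groups did not overlap. The fall was small, at log2 -0.16 ± 0.037 (edgeR adjusted p = 0.000212). The t-hESC libraries measured 85.3 and 79.8 CPM under DMSO, 76.7 and 75.5 CPM under BIX, and 83.3 and 75.4 CPM under VXN. Neither t-hESC response passed the edgeR test (log2 -0.11, adjusted p = 0.0877 for BIX, and log2 -0.06, adjusted p = 0.424 for VXN). Without the second t-hESC DMSO library the BIX value was log2 -0.17 (edgeR adjusted p = 0.0333, with 0.0333 to 0.487 over all alternatives).

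The FTH1 row shares its place with another gene. The span of FTH1 overlaps that of BEST1, which encodes bestrophin 1, a chloride channel known from the retinal pigment epithelium, and the library kit does not mark strand. The BEST1 row held nearly as many reads as the FTH1 row: 2538 ± 67.6 CPM (SD, n = 2) in HT29 under DMSO and 13185 ± 41.3 CPM under VXN. In t-hESC it held 1015 ± 14.7, 1178 ± 70.8 and 1233 ± 27.6 CPM under DMSO, BIX and VXN. The mean ratio of BEST1 to FTH1 reads was 0.967 and 0.908 in HT29 under DMSO and VXN, and 0.782 to 0.811 in t-hESC. No source used here says how a read in both genes was counted, so reads of the 2 rows cannot be told apart. With the BEST1 row added to FTH1, the log2 response was 2.42 in HT29 under VXN, 0.29 in t-hESC under VXN and 0.19 under BIX, and no call of FTH1 changed. This alternative was chosen after seeing the data. If a read in both genes was counted in both rows, the sum counts it again. The 2 rows also moved alike, so the unchanged calls are no separate evidence.

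**Figure D2:**
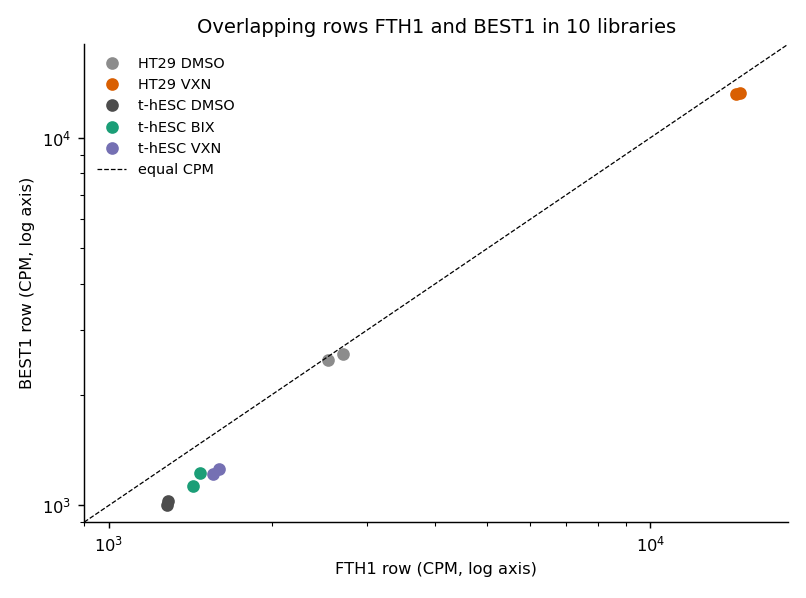
BEST1 row against FTH1 row in CPM (both axes log) for the 10 libraries, with a dashed line at equal CPM. All 10 points lie under the line, nearest to it in HT29 under DMSO and farthest in t-hESC, and both rows are highest in HT29 under VXN.

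Processed copies of the ferritin genes are many and could take reads from them. The 24 rows named as FTH1 pseudogenes held 5582 reads in all, or 0.626% of the FTH1 reads, led by FTH1P8 with 1687 and FTH1P15 with 895. The 16 FTL pseudogene rows held 1983 reads, or 0.422% of the FTL reads, led by FTLP3 with 1770 and FTLP2 with 90. How reads that match several copies were counted is not known, so the small copy counts are uncertain.

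The balance of the chains was higher in HT29 than in t-hESC in every library, and VXN and DMSO libraries overlapped in both lines. The log2 ratio of FTH1 to FTL reads in HT29 was 1.10 and 1.03 under DMSO and 1.01 and 1.06 under VXN. In t-hESC it was 0.49 and 0.49 under DMSO, 0.50 and 0.47 under VXN, and 0.44 and 0.36 under BIX. Both BIX libraries lay below the other t-hESC libraries. These ratios need no library scaling. They are given as values without a test, and only their position across groups is read, because exon lengths were not used here. With BEST1 reads added to FTH1 the group means became 2.04 and 1.97 in HT29 (DMSO, VXN) and 1.33, 1.26 and 1.31 in t-hESC (DMSO, BIX, VXN), so the level of the ratio rests on how those reads are assigned.

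Iron uptake genes did not move as one group. TFRC, the transferrin receptor at chr3:196049284-196082090, rose in all 3 treatment comparisons. It measured 529 and 520 CPM in HT29 under DMSO and 692 and 681 CPM under VXN. In t-hESC it measured 135 and 139 CPM under DMSO, 155 and 159 CPM under BIX, and 203 and 199 CPM under VXN. No groups overlapped, and every neighbour in the order HT29 VXN, HT29 DMSO, t-hESC VXN, t-hESC BIX, t-hESC DMSO differed in the edgeR test. The log2 response was 0.39 ± 0.029 in HT29 (edgeR adjusted p = 5.34e-19), 0.55 ± 0.036 in t-hESC under VXN (edgeR adjusted p = 4.39e-20) and 0.19 ± 0.038 under BIX (edgeR adjusted p = 6.84e-05). TFRC and ferritin mRNA, which iron regulatory proteins are known to control in opposite ways after transcription, thus both rose under VXN in each line. In the authors' deposited tables, TFRC passed in none of the 3 comparisons. Its adjusted p there was 0.324 for VXN in HT29, 0.168 for VXN in t-hESC and 0.831 for BIX.

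STEAP3, the ferric reductase at chr2:119223834-119265652, rose in t-hESC under VXN. The t-hESC libraries measured 40.1 and 40.4 CPM under DMSO, 40.9 and 37.7 CPM under BIX, and 46.4 and 51.0 CPM under VXN. The VXN libraries stood apart, with a log2 fold change of 0.28 ± 0.062 (edgeR adjusted p = 0.000321). HT29 libraries measured 22.3 and 18.8 CPM under DMSO and 20.4 and 19.7 CPM under VXN, which overlap (log2 -0.04, edgeR adjusted p = 0.740). STEAP3 overlaps STEAP3-AS1, whose row held 6.55 CPM in t-hESC under DMSO and 8.96 CPM under VXN, and without strand the reads of the pair cannot be told apart.

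SLC11A2, the divalent metal transporter at chr12:50952263-51028886, varied least of the 10 genes: its highest group mean was 1.27 times its lowest. It measured 65.9 and 72.0 CPM in HT29 under DMSO and 79.7 and 78.7 CPM under VXN, a rise of log2 0.20 ± 0.046 (edgeR adjusted p = 9.54e-05). All 6 t-hESC libraries lay between 61.0 and 65.7 CPM, and neither compound moved it past the test (log2 0.05 for BIX, edgeR adjusted p = 0.548, and 0.05 for VXN, edgeR adjusted p = 0.533). Under DESeq2 the HT29 rise had an adjusted p of 0.0534, the highest of its alternatives, which began at 3.19e-05.

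The ferroportin gene separated the lines. SLC40A1, which encodes ferroportin (chr2:189560590-189580786), measured 99.8 and 102 CPM in HT29 under DMSO and 109 and 111 CPM under VXN. The t-hESC libraries held 10 and 12 reads under DMSO, 15 and 5 under BIX, and 9 and 8 under VXN, or 0.367 to 0.945 CPM. HT29 was thus 179-fold above t-hESC under DMSO (log2 7.48 ± 0.11), the widest difference between the lines among the 10 genes. Since the gene lay close to the limit of the count filter in t-hESC, that difference is given as a description with no p. Within t-hESC no pair of groups differed in the edgeR test, with few reads behind the values. In HT29 the response to VXN was log2 0.13 ± 0.043 (edgeR adjusted p = 0.00649). That call was lost without the first HT29 DMSO library (edgeR adjusted p = 0.0766), without the second HT29 VXN library (edgeR adjusted p = 0.0801) and in 3 other settings, with adjusted p from 0.00188 to 0.439 over all of them.

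HMOX1, the heme oxygenase gene at chr22:35381096-35394207, followed ferritin in HT29 and did not in t-hESC. In HT29 it measured 8.69 and 7.81 CPM under DMSO and 36.3 and 36.8 CPM under VXN, a 4.42-fold rise (log2 2.14 ± 0.079, edgeR adjusted p = 1.31e-34). In t-hESC it measured 16.5 and 17.4 CPM under DMSO and 16.7 and 17.5 CPM under VXN, so the groups overlapped (log2 0.01 ± 0.085, edgeR adjusted p = 0.944). Under BIX it measured 13.7 and 13.1 CPM, below all other t-hESC libraries. That fall was log2 -0.34 ± 0.094 (edgeR adjusted p = 0.00464). It no longer passed without the second t-hESC DMSO library (edgeR adjusted p = 0.0598) or under DESeq2 (adjusted p = 0.0878), with 0.00389 to 0.0878 over all alternatives.

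The genes of the iron regulatory proteins fell in HT29 under VXN. ACO1, at chr9:32384643-32454769, measured 53.0 and 53.8 CPM under DMSO and 42.7 and 41.1 CPM under VXN (log2 -0.35 ± 0.052, edgeR adjusted p = 3.18e-08). IREB2, at chr15:78437431-78501453, measured 159.8 and 159.6 CPM under DMSO and 129 and 124 CPM under VXN (log2 -0.34 ± 0.037, edgeR adjusted p = 3.71e-12). Both genes thus stood at 0.786 and 0.792 of their DMSO levels, and neither pair of groups overlapped. In t-hESC, ACO1 measured 111 and 121 CPM under DMSO, 123 and 122 CPM under BIX, and 111 and 114 CPM under VXN. IREB2 measured 115 and 112, 118 and 116, and 104 and 112 CPM in the same order. No t-hESC response of either gene passed the edgeR test, with adjusted p from 0.189 to 0.594. Without the second t-hESC VXN library, IREB2 passed under VXN with log2 -0.13 (edgeR adjusted p = 0.0439, within 0.0439 to 0.815 over its alternatives).

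**Figure D3:**
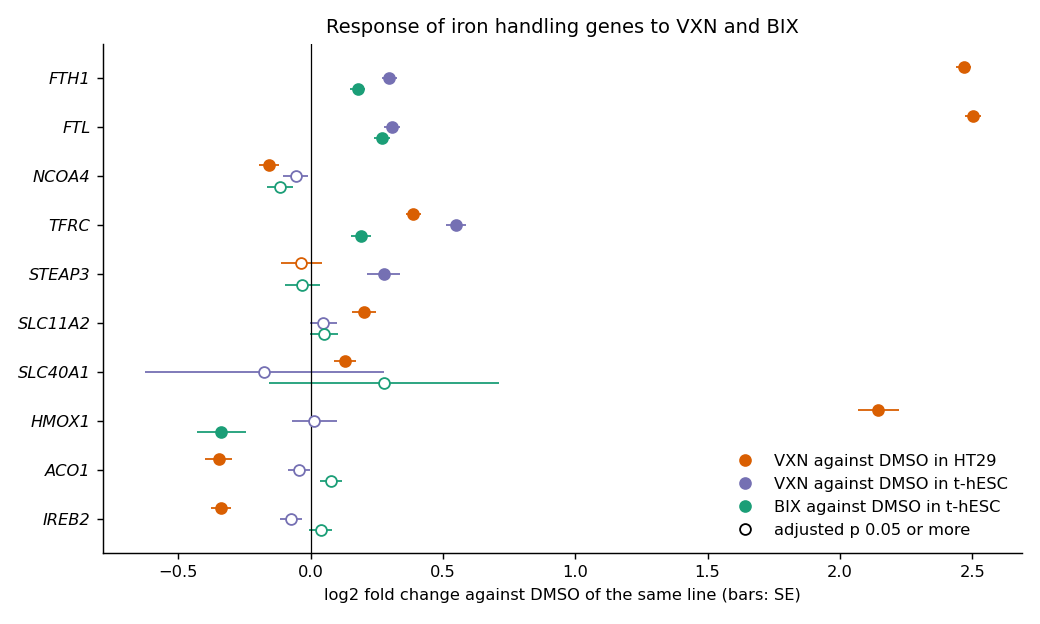
Log2 fold change of each gene against DMSO of its own line (points) with SE (bars) for VXN in HT29, VXN in t-hESC and BIX in t-hESC; open points did not pass an adjusted p of 0.05. FTH1, FTL and HMOX1 lie above 2 in HT29 under VXN and within 0.4 of 0 elsewhere, and TFRC is the only gene of the plot other than ferritin with 3 filled points.

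Counted over the 10 genes, VXN in HT29 raised 6 (FTH1, FTL, HMOX1, TFRC, SLC11A2, SLC40A1) and lowered 3 (NCOA4, ACO1, IREB2), beside 60.0% of all 22495 tested genes called in that comparison (33.0% higher, 26.9% lower). In t-hESC, VXN raised 4 (FTH1, FTL, TFRC, STEAP3) and lowered 0, where 29.0% of all genes were called (14.5% higher, 14.6% lower). DESeq2 and an unadjusted edgeR p under 0.05 also gave 0 lowered genes there. BIX raised 3 (FTH1, FTL, TFRC) and lowered 1 (HMOX1), where 23.1% of all genes were called (10.9% higher, 12.2% lower). The median log2 fold change of the 10 genes was 0.17, 0.03 and 0.07 in these 3 comparisons, beside 0.05, 0.00 and 0.00 over all tested genes. The 2 t-hESC comparisons share their DMSO libraries, so they are not independent of each other. Marker levels also differed between these groups. In t-hESC the pluripotency markers summed to 5526 to 5619 CPM under DMSO, 5444 to 5526 CPM under BIX and 4958 to 4991 CPM under VXN. The 7 fibroblast markers summed to 680, 802 to 843 and 947 to 949 CPM in the same order. Most of that sum was THY1, at 587, 692 and 856 CPM. Without THY1 the sums were at most 95, 138 and 94.1 CPM, and DCN and LUM were at 0 under VXN. In HT29 the colorectal markers summed to 1683 to 1701 CPM under DMSO and 2069.6 to 2072 CPM under VXN, while LYZ went from 2976 to 1407 CPM. Their part in the results was not tested.

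The ferritin response to VXN differed between the lines. The difference of the log2 effects, HT29 minus t-hESC, was 2.17 ± 0.039 for FTH1 (edgeR adjusted p = 1.15e-50), 2.19 ± 0.041 for FTL (edgeR adjusted p = 3.09e-50) and 2.13 ± 0.12 for HMOX1 (edgeR adjusted p = 1.49e-24). For 4 genes the difference was negative. TFRC rose less in HT29 than in t-hESC by log2 (-0.16 ± 0.046, edgeR adjusted p = 0.00297). ACO1 (-0.30 ± 0.067, edgeR adjusted p = 0.000126) and IREB2 (-0.26 ± 0.056, edgeR adjusted p = 7.67e-05) fell in HT29 and had no called change in t-hESC. STEAP3 (-0.31 ± 0.099, edgeR adjusted p = 0.00773) rose in t-hESC and had no called change in HT29. The difference for STEAP3 did not hold without the first HT29 DMSO library (log2 -0.18, edgeR adjusted p = 0.212), without the second t-hESC VXN library (edgeR adjusted p = 0.0575) or under DESeq2 (log2 -0.35, adjusted p = 0.0591), with 0.000862 to 0.212 over all alternatives. In all, 7 of the 10 genes differed, beside 43.2% of all tested genes (22.9% higher in HT29, 20.3% lower). In the count of 10, 3 were higher and 4 lower. NCOA4 (log2 -0.10, edgeR adjusted p = 0.182), SLC11A2 (log2 0.15, edgeR adjusted p = 0.0634) and SLC40A1 did not pass that test. SLC11A2 did pass in 4 alternatives: upper-quartile factors (edgeR adjusted p = 0.0313), a minimum count of 50 (0.0356), without the second HT29 DMSO library (0.0173) and without the second t-hESC VXN library (0.0474), within 0.0173 to 0.457 over all of them. NCOA4 passed in 1, without the second t-hESC VXN library (edgeR adjusted p = 0.0197, within 0.0197 to 0.766).

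In t-hESC, VXN at 10 µM and BIX at 1 µM were set side by side, and compound and dose cannot be told apart. TFRC was higher under VXN by log2 0.36 (edgeR adjusted p = 5.22e-12), STEAP3 by 0.31 (edgeR adjusted p = 0.000242), HMOX1 by 0.35 (edgeR adjusted p = 0.00412) and FTH1 by 0.12 (edgeR adjusted p = 0.000796). ACO1 was lower, with a log2 difference of -0.12 (edgeR adjusted p = 0.0336). These 5 of 10 genes stand beside 22.7% of all tested genes (11.6% higher, 11.2% lower). DESeq2 called 3 of the 10. The ACO1 call was lost without either BIX library, without the first VXN library, with no count filter (edgeR adjusted p = 0.114), under DESeq2 (adjusted p = 0.136) and with only the compared groups in the fit (edgeR adjusted p = 0.0817), and its adjusted p ran from 0.0089 to 0.176 over all alternatives. IREB2 stood just outside the threshold, at log2 -0.11 (edgeR adjusted p = 0.0502). It passed as lower in 4 alternatives: DESeq2-type size factors (edgeR adjusted p = 0.0277), upper-quartile factors (0.0146), a minimum count of 50 (0.0385) and without the second VXN library (0.00941), within 0.00941 to 0.485 over all of them. HMOX1 had an adjusted p of 0.0812 under DESeq2, within 0.00358 to 0.0812. FTL differed by log2 0.04 with an SE of 0.029, which did not pass, but without the second BIX library it did (log2 0.09, edgeR adjusted p = 0.0259).

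Levels also differed between the lines before treatment. SLC40A1 stays out of these counts, since it lay close to the limit of the count filter in t-hESC. Under DMSO, 6 of the 9 others were higher in HT29 and 3 lower, beside 84.4% of all tested genes called (38.9% higher, 45.6% lower). TFRC was 3.82-fold higher (log2 1.93 ± 0.033), FTH1 2.05-fold, NCOA4 2.05-fold, IREB2 1.40-fold and FTL 1.37-fold. HMOX1 (log2 -1.04), STEAP3 (log2 -0.97) and ACO1 (log2 -1.12) were lower in HT29. SLC11A2 had the smallest difference, at log2 0.15 (edgeR adjusted p = 0.00422). It was lost without the second HT29 DMSO library (edgeR adjusted p = 0.191), without the second t-hESC DMSO library (edgeR adjusted p = 0.141), under DESeq2 and with upper-quartile scaling, with 0.000809 to 0.495 over all alternatives. Under VXN 7 of the 9 were higher in HT29 and 2 lower, beside 86.4% of all tested genes (40.9% higher, 45.5% lower). HMOX1 changed sides: HT29 held 2.13-fold more of it than t-hESC under VXN. FTH1 was then 9.20-fold and FTL 6.27-fold higher in HT29.

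Uptake was also read against storage as the ratio of TFRC to FTH1 reads. Its log2 value in HT29 was -2.36 and -2.29 under DMSO and -4.38 and -4.43 under VXN. In t-hESC it was -3.24 and -3.21 under DMSO, -3.21 and -3.21 under BIX, and -2.97 and -2.97 under VXN. VXN libraries of HT29 lay lowest of all, whereas those of t-hESC lay above the other t-hESC libraries. These ratios were not tested either. With BEST1 reads added, the means were -3.30 and -5.34 in HT29 and -4.06, -4.07 and -3.80 in t-hESC, so VXN again stood lowest in HT29 and highest in t-hESC.

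**Figure D4:**
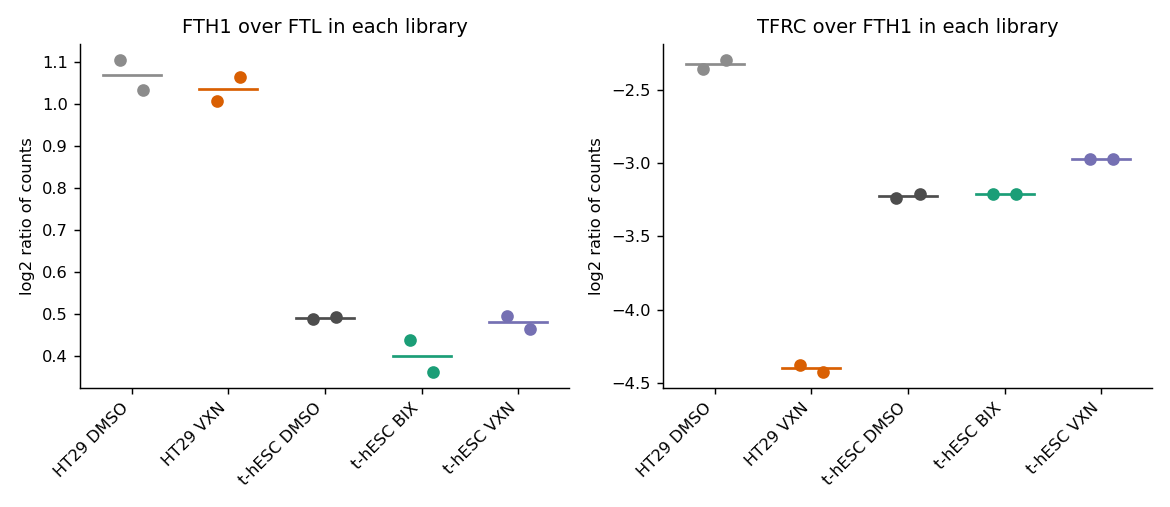
Log2 ratio of read counts in each library (points) with group means (lines): FTH1 over FTL on the left and TFRC over FTH1 on the right. The left panel separates the lines at about 1.0 and 0.5 with the BIX libraries lowest, and the right panel shows the HT29 VXN libraries near -4.4.

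Other genes with like profiles were searched among 11579 genes that averaged 10 CPM or more, by the root mean square difference (RMS, log2) over the 5 group means after centring. Nearest to FTH1 were BEST1 (RMS 0.122), the overlapping row, then SRXN1 (0.134), the sulfiredoxin gene, and STEAP1 (0.141), a metalloreductase gene. KLHL29 (0.0949), CPEB4 (0.150) and the mitochondrial ribosomal RNA gene MT-RNR2 (0.157) were nearest to FTL. Nearest to HMOX1 stood FADS3 (0.136), SESN2 (0.151), a stress response gene, and SHFL (0.165). TFRC lay nearest to PRICKLE3 (0.0493), ETV6 (0.0568) and KLF3 (0.0720), and SLC40A1 to CLDN4 (0.150), FOXA2 (0.185) and GPR35 (0.186). For NCOA4 they were CPNE1, SPCS2 and SLU7, for STEAP3 DHRS7, MAGEF1 and OCEL1, and for ACO1 CTSC, CCHCR1 and ENTPD1. SLC11A2 and IREB2 were searched too, but varied by less than 1 on the log2 scale, so their nearest genes are not named. These are descriptions over 5 points that share the 2 lines.

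Genes beyond the 10 were read in 9 lists of iron biology, which also hold the 10 where they belong. Outside the 10, the lists held 84 genes, of which 76 were tested. VXN in HT29 raised 33 and lowered 32 of these 76. In t-hESC, VXN raised 16 and lowered 16, and BIX raised 7 and lowered 18. No list was tested as a set, so counts stand beside the shares of all 22495 tested genes. Those were 60.0% for VXN in HT29 (33.0% higher, 26.9% lower) and 29.0% for VXN in t-hESC (14.5% higher, 14.6% lower). For BIX the share was 23.1% (10.9% higher, 12.2% lower).

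In HT29 under VXN, all 10 genes of the NRF2 and BACH1 list rose, with a median log2 fold change of 1.33 beside 0.05 over all genes. Over all tested genes, 33.0% rose there, 14.5% rose under VXN in t-hESC and 10.9% under BIX. NRF2 (NFE2L2) is the activator and BACH1 the repressor of antioxidant genes, and both act on FTH1, FTL and HMOX1. The thioredoxin reductase gene TXNRD1 went from 537 ± 2.65 to 1923 ± 11.1 CPM (SD, n = 2; log2 1.84 ± 0.029, edgeR adjusted p = 1.55e-55), and SRXN1 from 38.6 ± 1.49 to 209 ± 1.22 CPM (log2 2.43 ± 0.044, edgeR adjusted p = 7.32e-52). The list also holds 2 brakes of the pathway that rose: KEAP1 by log2 0.25 (edgeR adjusted p = 1.94e-06) and BACH1 by log2 0.91 (edgeR adjusted p = 1.58e-27), named after their values were seen. In t-hESC, VXN raised 3 of the 10 and lowered 1, among them SLC7A11, the cystine transporter gene (log2 0.41 ± 0.088, edgeR adjusted p = 0.000147), and NFE2L2 (log2 0.24 ± 0.057, edgeR adjusted p = 0.000542). BIX raised only SLC7A11 (log2 0.32 ± 0.093, edgeR adjusted p = 0.00648), a count of 1 that was 0 without the first t-hESC DMSO library and 2 without the second BIX library. The VXN effect differed between the lines for 9 of the 10, all larger in HT29, beside 43.2% of all tested genes (22.9% higher in HT29).

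Mitochondrial iron and iron-sulfur assembly went largely the other way in HT29, where 16 of 22 genes fell and 5 rose under VXN (median log2 -0.36). Of all tested genes, 26.9% fell and 33.0% rose there. In t-hESC the shares were 12.2% lower and 10.9% higher under BIX, and 14.6% lower and 14.5% higher under VXN. The 2 risers with the smallest p were HSPA9, the mitochondrial chaperone gene mortalin, from 541 ± 2.88 to 1018 ± 4.02 CPM (SD, n = 2; log2 0.91 ± 0.028), and ISCU, the scaffold of cluster assembly, from 61.5 ± 0.496 to 118 ± 0.303 CPM (log2 0.94 ± 0.043). In t-hESC, BIX lowered 9 of 22, among them HSPA9 (log2 -0.28 ± 0.030), and raised 0 (1 at an unadjusted edgeR p under 0.05, 0 by DESeq2). The count of 9 was 5 under DESeq2 and 5 without the first BIX library. VXN in t-hESC raised 3, including the mitochondrial iron importer SLC25A37 (log2 0.37 ± 0.057), and lowered 5, including HSPA9 (log2 -0.22 ± 0.029). The 8 calls there became 3 under DESeq2, 5 without the first t-hESC DMSO library, 4 without the second, and 5 without the second VXN library.

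Among 11 tested genes of uptake and reduction, VXN in HT29 raised 6 and lowered 1. That is near the share of all tested genes called in HT29, 60.0%. In t-hESC this share was 29.0% for VXN and 23.1% for BIX. STEAP1 rose from 6.73 ± 0.614 to 37.2 ± 0.904 CPM (SD, n = 2; log2 2.47 ± 0.085, edgeR adjusted p = 5.21e-36) and STEAP2, a related reductase, from 19.6 ± 1.20 to 66.3 ± 0.323 CPM (log2 1.76 ± 0.063, edgeR adjusted p = 2.48e-35). In t-hESC, VXN raised 3, among them the metal transporter SLC39A8 (log2 0.33 ± 0.10, edgeR adjusted p = 0.0123), and lowered 0, as also by DESeq2 and at an unadjusted edgeR p under 0.05. BIX raised 1 and lowered 1, SLC39A14 (log2 -0.14 ± 0.038, edgeR adjusted p = 0.00340), and DESeq2 called 1 of these 2. Of 6 storage and chaperone genes, VXN raised 4 and lowered 1 in HT29, and each compound raised 3 and lowered 0 in t-hESC. These counts stand beside the same shares of all tested genes. In t-hESC DESeq2 also lowered 0, and at an unadjusted edgeR p under 0.05 BIX lowered 1 and VXN 0. For VXN in HT29 DESeq2 raised 4 and lowered 2. HERC2, a ubiquitin ligase gene that acts on NCOA4, rose under BIX from 80.3 ± 0.253 to 128 ± 6.36 CPM (log2 0.67 ± 0.050, edgeR adjusted p = 4.58e-15), under VXN in t-hESC by log2 0.30 ± 0.051 and in HT29 by log2 0.20 ± 0.045. The iron chaperone gene PCBP2 rose in HT29 by log2 0.14 ± 0.030.

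Of 7 export and hepcidin genes, VXN in HT29 raised 2 and lowered 3, beside 33.0% higher and 26.9% lower over all tested genes. In t-hESC, 29.0% of all tested genes were called for VXN and 23.1% for BIX. HEPH, the ferroxidase hephaestin that works with ferroportin, fell from 25.8 ± 1.60 to 7.77 ± 0.749 CPM (SD, n = 2; log2 -1.73 ± 0.086, edgeR adjusted p = 1.44e-27), and HFE, the hemochromatosis gene, from 15.2 ± 0.915 to 10.5 ± 0.197 CPM (log2 -0.53 ± 0.10, edgeR adjusted p = 7.45e-06). The 5 calls became 3 under DESeq2, 3 without the first HT29 DMSO library and 3 without the second HT29 VXN library. In t-hESC, BIX raised HEPH (log2 0.29 ± 0.043, edgeR adjusted p = 2.00e-07) and no other gene of the list. VXN moved 0 of 7 with edgeR, with DESeq2 and at an unadjusted edgeR p under 0.05. Some of the 7 had few reads there, with SLC40A1 at 0.557 CPM and HFE at 1.69 CPM in t-hESC under DMSO. A response of such genes could be missed by each of these methods. HEPH measured 105 ± 3.58, 129 ± 0.142 and 103 ± 1.73 CPM in t-hESC under DMSO, BIX and VXN. Between the lines HEPH went opposite to SLC40A1: under DMSO it was lower in HT29 by log2 -2.02 ± 0.052 (edgeR adjusted p = 6.04e-44). In that comparison 3 of the 7 were higher in HT29 and 3 lower, beside 38.9% and 45.6% of all tested genes. The higher ones include SLC40A1, which lay close to the limit of the count filter in t-hESC, and HFE, which was low there. Their count is thus a description only.

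Over all tested genes, 60.0% were called for VXN in HT29, 29.0% for VXN in t-hESC and 23.1% for BIX. The list of iron regulatory protein control holds ACO1 and IREB2 themselves beside their regulators. All 8 of its genes were called in HT29 under VXN, 3 higher and 5 lower, with ACO1 and IREB2 among the lower. The count was 5 without the second HT29 DMSO library. FBXL5, the iron sensor that targets IREB2 protein for breakdown, rose by log2 0.31 ± 0.064 (edgeR adjusted p = 2.42e-05), and the cluster targeting factor MMS19 fell by log2 -0.30 ± 0.041 (edgeR adjusted p = 2.42e-09). In t-hESC, BIX lowered 3 and VXN lowered 3 and raised 1. Ubiquitin ligase subunits CUL1 (log2 -0.17 ± 0.041 under BIX and -0.23 ± 0.041 under VXN) and SKP1 (-0.17 ± 0.035 and -0.18 ± 0.035) were among those that fell. Of 9 tested mRNAs with a known iron responsive element, 8 rose in HT29 under VXN and 0 fell in the edgeR test (1 at an unadjusted p under 0.05, 0 by DESeq2). Over all tested genes, 33.0% rose there, and 14.5% and 10.9% rose under VXN and BIX in t-hESC. The count of 8 was 4 under DESeq2, 5 without the first HT29 DMSO library and 5 without the second HT29 VXN library. In t-hESC 5 of the 9 rose under VXN and 4 under BIX, with 0 lower by edgeR, adjusted or not, and by DESeq2. EPAS1, which encodes the hypoxia factor HIF2A, rose in HT29 from 59.7 ± 2.50 to 129 ± 1.67 CPM (SD, n = 2; log2 1.11 ± 0.047, edgeR adjusted p = 2.49e-31) and in t-hESC under VXN from 1.38 ± 0.150 to 3.15 ± 0.621 CPM (log2 1.19 ± 0.24, edgeR adjusted p = 4.96e-05). CDC42BPA, a kinase gene, rose in all 3 comparisons, by log2 0.12, 0.31 and 0.30.

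Heme genes were mixed, beside 60.0% of all tested genes called for VXN in HT29. For t-hESC this share was 29.0% under VXN and 23.1% under BIX. Of 8 tested synthesis genes, VXN in HT29 raised 1 and lowered 5. ALAS1, which makes the first and rate-limiting step, rose from 57.1 ± 1.05 to 117 ± 6.47 CPM (SD, n = 2; log2 1.03 ± 0.045, edgeR adjusted p = 1.30e-30), and ALAD, the next enzyme, fell from 56.8 ± 3.95 to 34.2 ± 1.15 CPM (log2 -0.73 ± 0.059, edgeR adjusted p = 1.44e-17). In t-hESC, VXN raised 2 and lowered 4, with UROS (log2 -0.59 ± 0.062) and UROD (log2 -0.33 ± 0.051) lower. BIX lowered 4, including UROS (log2 -0.26 ± 0.062) and the ferrochelatase gene FECH (log2 -0.29 ± 0.068), and DESeq2 called 1 of them. Of 10 heme transport and breakdown genes, VXN in HT29 raised 5 and lowered 4. LRP1, a receptor that takes up heme bound to hemopexin, rose in all 3 comparisons: by log2 1.36 ± 0.040 in HT29, 0.53 ± 0.045 in t-hESC under VXN and 1.06 ± 0.044 under BIX. ABCG2, a heme exporter, fell in HT29 (log2 -0.73 ± 0.062). In t-hESC, VXN raised 3 and lowered 3, with BLVRB, a biliverdin reductase gene, higher (log2 0.35 ± 0.068). BIX raised 3 and lowered 2, with the heme exporter FLVCR1 higher (log2 0.37 ± 0.047), and DESeq2 called 3 of these 5.

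**Figure D5:**
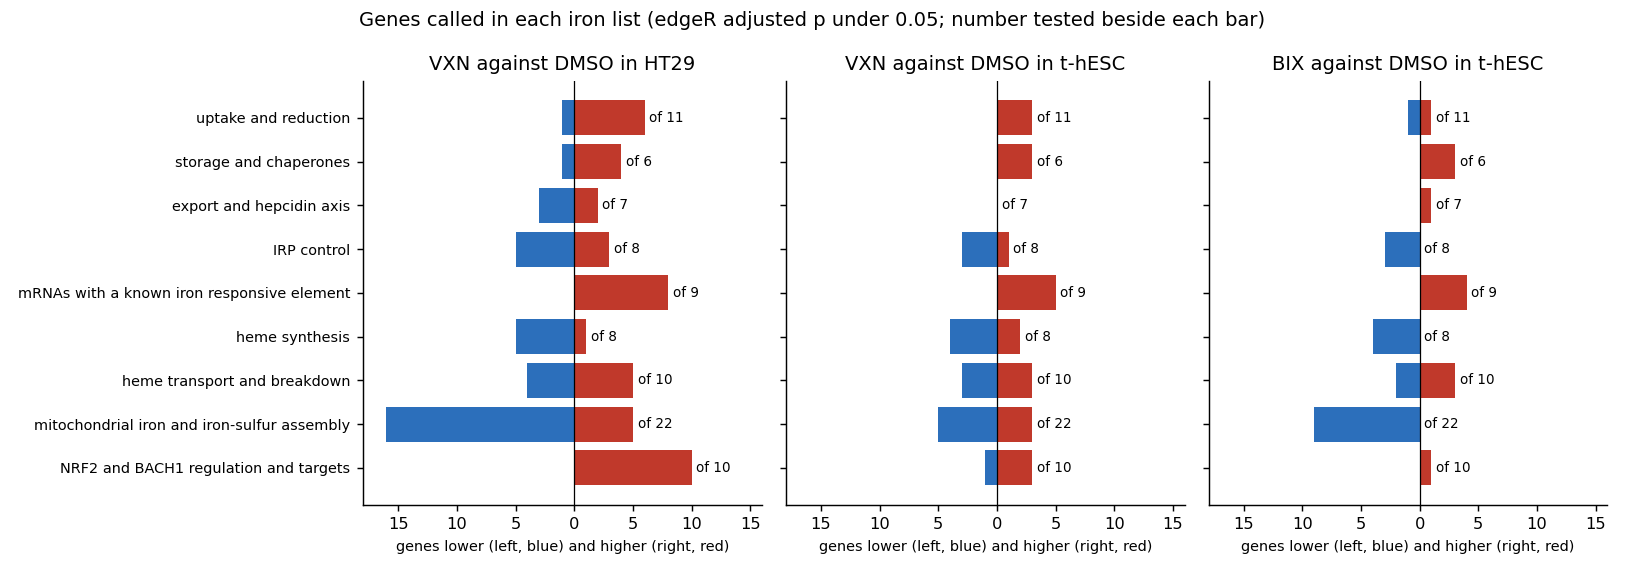
Number of genes called lower (left of 0, blue) and higher (right of 0, red) at an edgeR adjusted p under 0.05 in each of 9 iron lists, for VXN in HT29, VXN in t-hESC and BIX in t-hESC, with the number tested beside each bar. In HT29 the NRF2 and BACH1 list has 10 of 10 higher and the mitochondrial list 16 of 22 lower. Over all tested genes, 33.0% were higher and 26.9% lower there.

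The authors' deposited tables give their own calls for these genes. In the authors' deposited table for VXN in HT29, 5 of the 10 genes passed an adjusted p of 0.05: FTH1, FTL and HMOX1 higher, ACO1 and IREB2 lower. The other 4 genes called here, NCOA4, TFRC, SLC11A2 and SLC40A1, did not pass there. The authors' deposited table for HT29 against t-hESC under VXN held 8, with 6 higher and 2 lower. In the authors' deposited tables for BIX and for VXN in t-hESC, 0 of the 10 passed, where the edgeR test here called 4 in each. FTH1 under VXN in t-hESC came nearest in the authors' deposited table, with an adjusted p of 0.0578. DESeq2, run here on the same 10 libraries, called 3 of the 10 for BIX and 4 for VXN in t-hESC. Why these calls differ from those of the authors was not tested. Each group holds 2 libraries described in the series as biological replicates. With 5 residual and 56.7 prior degrees of freedom, the variance behind each p-value was drawn mostly from all tested genes. The biological variation between replicates, fitted jointly over genes, came to a coefficient of only 0.0207. In HT29 under VXN the authors' standard errors were larger for each of the 10 genes. They were 0.100 against 0.028 for FTH1 and 0.221 against 0.029 for TFRC. The p-values describe these libraries, and how far they hold for further independent cultures was not tested.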

How the data were processed

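RNA of 10 samples was sequenced from TruSeq RNA v2 libraries, whose chemistry leaves strand unmarked. Groups and replicate numbers were read from the sample titles, since the labels' treatment entry names DMSO throughout. Tools named in the submitters' processing notes, with no roles, are fastp 0.20.1, FastQC 0.11.9, STAR and DESeq2 1.34.0, beside GRCh38 and hg38. No source used here names the counting program or the annotation. The authors deposited raw counts per gene, and 4 other columns of that table match no sample and stayed out. The 4 comparison tables deposited by the authors hold log2 fold changes with standard errors and p-values, and whether the log2 values were shrunken is unknown here.

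Counts for 60651 genes, without 1181 repeat families, went into edgeR 4.0.16 (R 4.3.3). Scaling was by TMM. Of all genes, 22495 passed filterByExpr at a minimum count of 10. Groups were compared by quasi-likelihood F tests in one fit over all 10 libraries, with 5 residual and 56.7 prior degrees of freedom. P-values were adjusted by Benjamini-Hochberg over all tested genes of a comparison, and genes under 0.05 were called. Standard errors were derived from the log2 fold change and the F statistic. Steps were checked on simulated data. DESeq2 1.42.0, other scalings and filters, a replicate block and leaving out each library served as alternatives. Gene coordinates and promoter windows came from RefSeq tables of GRCh38.p14. Named genes are the 10 genes, the 3 nearest in profile to each, up to 2 called genes per list and comparison with the smallest p, and the 2 fullest FTH1 and FTL pseudogene rows. A gene that this rule selects is not reported here, though list counts include it. The 10 genes and the lists were chosen with earlier results of these data known, so they are no independent evidence.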

Additional observations from a re-analysis of the deposited data

Results flagged for a closer look

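For 7 of the 10 genes the VXN effect differed between HT29 and t-hESC in the edgeR test of the difference itself. As log2 effect in HT29 minus log2 effect in t-hESC, the differences were 2.17 for FTH1, 2.19 for FTL, 2.13 for HMOX1, -0.16 for TFRC, -0.31 for STEAP3, -0.30 for ACO1 and -0.26 for IREB2. In the ferritin pair and HMOX1 the HT29 response was the larger one. Of the 4 negative differences, only that of TFRC joins 2 called rises. Groups of 2 libraries are too small for a check for single outlying libraries.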

How the results depend on the processing

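Over the alternatives, 1168 fold changes of the 10 genes kept direction and side of the threshold, 22 no longer passed, 12 newly passed and 13 changed sign, none of these 13 called. FTH1, FTL and TFRC passed in all 3 treatment comparisons under every alternative run here. In the authors' deposited tables, TFRC passed in none of them, and FTH1 and FTL passed only in HT29. DESeq2 gave 2825 called genes for BIX in t-hESC (edgeR 5199), 3570 for VXN in t-hESC (edgeR 6531) and 2579 for VXN against BIX (edgeR 5110), and called 3 of the 10 genes in that last comparison (edgeR 5). The cause was not tested. Changes of sign in log2 effect were as follows. HMOX1 under VXN in t-hESC was -0.0090 with upper-quartile factors and ran from -0.027 to 0.050 when single libraries were left out. SLC11A2 between VXN and BIX was 0.0043 with no count filter and -0.036 to 0.028 over single libraries left out. The same range was -0.10 to 0.020 for STEAP3 and -0.60 to 0.75 for SLC40A1 under BIX, -0.13 to 0.017 for NCOA4 and -0.11 to 0.012 for ACO1 under VXN in t-hESC, -0.15 to 0.093 for STEAP3 in HT29, and, for VXN against BIX, -0.017 to 0.094 for FTL, -0.014 to 0.13 for NCOA4 and -0.93 to 0.42 for SLC40A1. Upper-quartile factors moved the median log2 difference of all genes between the lines under DMSO by -0.11. With pseudogene rows added, log2 FTH1 over FTL in t-hESC under DMSO was 0.50, and log2 TFRC over FTH1 was -3.22 under BIX and -2.98 under VXN. With the BEST1 row added to FTH1, log2 FTH1 over FTL was 2.04 and 1.97 in HT29 (DMSO, VXN) and 1.33, 1.26 and 1.31 in t-hESC (DMSO, BIX, VXN), and log2 TFRC over FTH1 was -3.30, -5.34, -4.06, -4.07 and -3.80 in that order. The replicate block left the numbers of the 10 genes called as they were (4, 4, 9, 5, 7, 10 and 10, with SLC40A1 in the last 2) and called 5101, 6442, 13426, 5002, 9659, 18948 and 19369 genes in all. Same-numbered libraries did not deviate together (correlations -0.0610 to 0.0931), so the block is not read as a pairing. Depth limited SLC40A1 in t-hESC, at 5 to 15 reads per library.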
